A study of Homo sapiens with 24 samples.

Results

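The regions described here are the stretches of transcript that anti-m1A immunoprecipitation (IP) enriched in both replicates of HEK293T cells lacking ALKBH3. N1-methyladenosine (m1A) is adenosine with a methyl group on a nitrogen of its base-pairing face, so it blocks normal pairing and stops or misleads reverse transcriptase. ALKBH3 is a dioxygenase that takes methyl groups off alkylated bases in nucleic acids, m1A in RNA among them. HEK293T is a human embryonic kidney cell line. On mRNA, m1A pulldown is known mainly from the 5′ part of the transcript, and 28S ribosomal RNA carries a long-known m1A.

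The main groups were KO_IP and its unenriched counterpart KO_Input, each with 2 replicates of ALKBH3 knockout cells that received no treatment. Cells of KO_IP and KO_Input were grown in serum-containing DMEM. KO_Demethyl, the demethylase-treated counterpart with 2 replicates, was used for scaled coverage only. Values over all lists of the series also rest on WT_IP (wild type), UT_IP (untreated wild type), H2O2_IP (hydrogen peroxide) and Starve_IP (serum starvation). Among these values are the shares of genes with a peak in any list. Per the labels, polyadenylated RNA (40 µg, selected out of 2.5 mg total RNA) was copied by AMV reverse transcriptase with dNTP kept at 0.2 mM. The labels do not say whether the knockout line is 1 clone, or whether the replicates were separate cultures. ALKBH3 itself had 0 peaks in either list, so the lists cannot check the knockout.

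Each IP library has its own peak list, called KO1 and KO2 below, and each peak has a start, an end and a summit counted in nt along a RefSeq transcript. The pileup is the authors' read coverage at the summit, and the fold is the authors' enrichment over the local background of that peak. Peaks of the 2 lists that overlapped by 1 nt or more were merged, which gave 4600 regions, and 2356 of them (51.2%, 95% Wilson interval 49.8 to 52.7) lay in both lists. Merging all 10 lists of the series gave 38299 regions, and the replicate pairs of the other conditions shared between 8.0% and 21.4% of theirs. Since the pair was chosen for this repeatability, its rank is no finding. Intervals on shares cover counting error only, and transcripts of 1 gene repeat the same reads.

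The 2356 regions lay on 2303 transcripts and belonged to 1429 genes, with 32 regions on transcripts that have no symbol in the gene table. Those 1429 genes were 15.3% of the 9318 genes with a peak in any of the 10 lists, and 53.4% of the 2678 genes with a peak in KO1 or KO2. One transcript carried the region in 892 genes, and 537 genes had it on several transcripts, up to 6 for the tubulin gene TUBB4A. Protein-coding genes held 2287 regions, long noncoding RNA genes 29 and transcribed pseudogenes 7. Vimentin (VIM, an intermediate filament protein abundant in this line) was the one HEK293T marker of 8 with a region, at folds of 3.80 in KO1 and 3.47 in KO2. Of 14 markers of other cell types, 2 had a peak in any of the 10 lists and none had one in KO1 or KO2. Among all 9318 genes with a peak in any list, 2055 had one in KO1 and 2084 in KO2, so these markers are too few to read. A peak list cannot show which genes are expressed.

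The start of the transcript is where most regions lay, so the first 30 bases are shown for genes whose region reached nearly to it and whose RefSeq entry has 1 transcript. Capitals mark the bases inside the region. Sequences are RefSeq gene starts on build GRCh38.p14, while the submitters' notes name hg19, and it was not tested that the deposited transcript begins at the same base. A region starting within nt 1 to 25 was found for 71 genes, of which 9 met the other conditions, and 7 are printed.
PRDX4, a peroxiredoxin of the endoplasmic reticulum, chrX:23667493-23667522, plus strand: gtgcacgcggttgtagctGCCCGGCGGCGG
EEF2, the translocation factor of translation, chr19:3985434-3985463, minus strand: ctcttccgccgtcgtcgcCGCCATCCTCGG
GABARAP, an autophagosome protein of the ATG8 family, chr17:7242420-7242449, minus strand: gcaaattcgtggatcgctccGCTGAATCCG
GOLPH3, a Golgi phosphoprotein, chr5:32174290-32174319, minus strand: atattggaaaggcgccgccgCCGCCTCCGC
TLNRD1, a talin rod domain protein, chr15:81000923-81000952, plus strand: aaaagatttctataggctcCAGGGAGGTTA
BNIP3, a mitophagy receptor, chr10:131981894-131981923, minus strand: agtccgggagcgcagctggGCCGCGGCGCT
SOX12, a transcription factor, chr20:325552-325581, plus strand: actgaaaggcGTCGGCGGCCGGGCGGGGAG
The region began at nt 21 of GABARAP and GOLPH3 and at nt 11 of SOX12. In EEF2, whose first bases are a run of pyrimidines like those of other translation genes, the summit was at nt 101 and nt 104, with pileups of 1094 and 805. In PRDX4 it was at nt 102 and nt 101, with pileups of 318 and 297.

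Over all member genes the start was rich in G and C. The first 50 bases had a median GC content of 70.0% (SD 9.26) in the 1161 member genes with an entry in the sequence table (81.2% of 1429). The median was 68.0% in 7589 genes with a peak in any list and 64.0% in 15842 protein-coding genes. The SD is over genes, and no test of the medians was made. An A was the first base in 44.5% of member genes, a C in 14.2% and a G in 40.2%, against 44.5%, 12.1% and 42.1% of genes with a peak in any list and 50.7%, 11.3% and 36.3% of protein-coding genes. The letters GTTCNA, which read GUUCNA in RNA and occur in the T loop of tRNA, where m1A is known, were searched on the transcript strand only. They stood in the first 50 bases of 29 member genes (2.50%, 1.74 to 3.56), against 1.95% of protein-coding genes and 2.35% of all 27305 genes of the table. Within these letters and this window the share was close to the background. No more than the first 50 bases could be searched, and no summit lay within them, so the search covered the base under no summit.

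Summits clustered between nt 101 and nt 200. None of 2356 regions had its summit in nt 1 to 60 (upper limit of the 95% interval 0.163%), and the lowest was at nt 65. The shares were 3.65% at nt 61 to 100, 33.9% at nt 101 to 150, 20.9% at nt 151 to 200 and 17.6% at nt 201 to 300. Another 17.0% lay at nt 301 to 1000 and 6.54% at nt 1001 to 110000. Beyond nt 110000, 10 regions had positions whose meaning on a transcript is not clear. The class up to nt 110000 also holds 3 regions of TTTY4C, a long noncoding RNA, at nt 66922, 74706 and 83794. Whether these are true transcript positions was not tested. Summits within 300 nt of the transcript start numbered 1791 (76.0%, 74.3 to 77.7), and counted once per gene the share was 77.5% of 1429. The summit trailed the start of its own peak by a median of 73.0 nt in KO1 and 71.0 nt in KO2, and no peak was shorter than 100 nt. Some peaks began in the first 60 nt, 26.4% in KO1 and 25.6% in KO2, although no summit lay there.

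**Figure D1:**
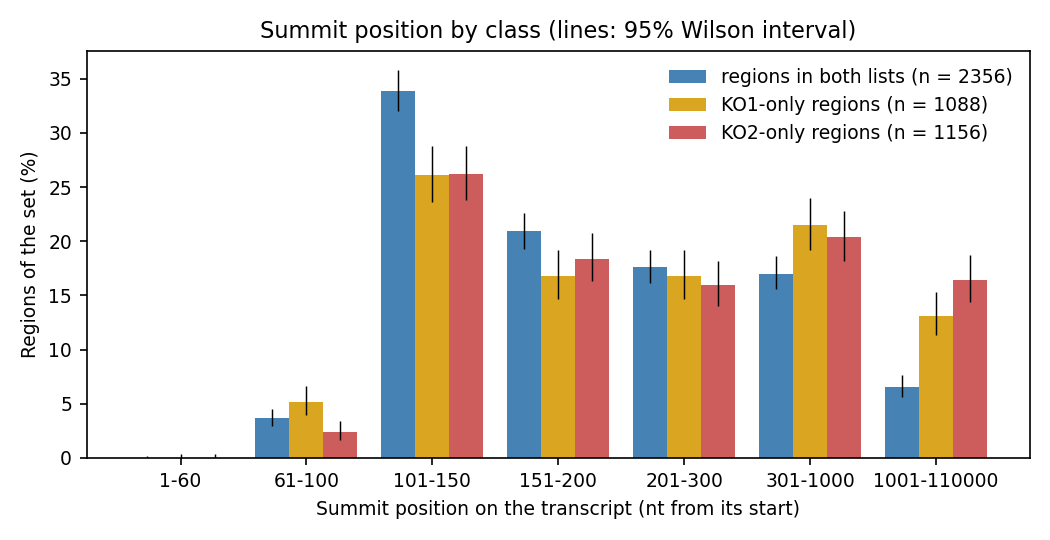
Share of regions (vertical axis, %) by position of the summit on the transcript (horizontal axis, nt from its start), for regions in both lists, in KO1 alone and in KO2 alone. Lines are 95% Wilson intervals, and positions beyond nt 110000 are not drawn. Regions in both lists reached 33.9% at nt 101 to 150, and the class of nt 1 to 60 is empty in all 3 sets.

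Of the regions called in 1 list alone, 64.9% (62.0 to 67.7) of the 1088 KO1-only regions and 63.0% (60.2 to 65.7) of the 1156 KO2-only regions had the summit within 300 nt, beside the 76.0% of repeated regions. The difference was not tested, and peak strength moved with it. In KO1 the median pileup was 157 for regions in both lists and 76.0 for KO1-only regions, and in KO2 it was 147 for regions in both lists and 73.0 for KO2-only regions. Position went with fold among the repeated regions too. Split into quartiles by the lower fold of the 2 lists, 63.8%, 70.5%, 82.0% and 87.8% of regions had the summit within 300 nt, lowest fold first.

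The share of peaks found again was higher in each stronger quartile. Of KO1 peaks 68.4% lay in a repeated region, and of KO2 peaks 67.2%. By quartile of −log10 q-value, weakest first, the share was 38.3%, 61.8%, 79.3% and 94.3% in KO1, and 37.9%, 54.9%, 79.9% and 96.0% in KO2. At the edge of the rule, the shortest overlap among regions with 1 peak in each list was 41 nt on NR2F2, a nuclear receptor, followed by 50 nt on ABHD12, a lysophospholipase. Just outside it, peaks on PAFAH1B3 missed each other by 1 nt and those on TMEM185B by 26 nt. Few regions sat at that edge, since 2338 of 2341 single-peak regions overlapped by at least 50% of the shorter peak.

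Pileups at the repeated regions agreed closely between the replicates. Only regions called in both lists have a pileup in each, so the 1088 KO1-only and 1156 KO2-only regions are left out. The agreement therefore holds only for regions that passed the call in both lists. The median log2 of the KO2 pileup over the KO1 pileup was −0.08 (SD 0.35 over 2356 regions), and 90.1% of regions were within 1.5-fold. Across regions Pearson's r of log2 pileup was 0.970 and Spearman's rho of pileup 0.939. These regions are not independent, since transcripts of 1 gene share reads and the pileup carries transcript abundance, which both libraries share. Fold, which sets the pileup against its local background, gave a lower r of 0.820 and rho of 0.771, with 85.7% of regions within 1.5-fold. The SD of the log2 pileup ratio was 0.38, 0.39, 0.34 and 0.28 by quartile of mean pileup, weakest first, while counting error alone would give medians of 0.24, 0.19, 0.14 and 0.09.

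**Figure D2:**
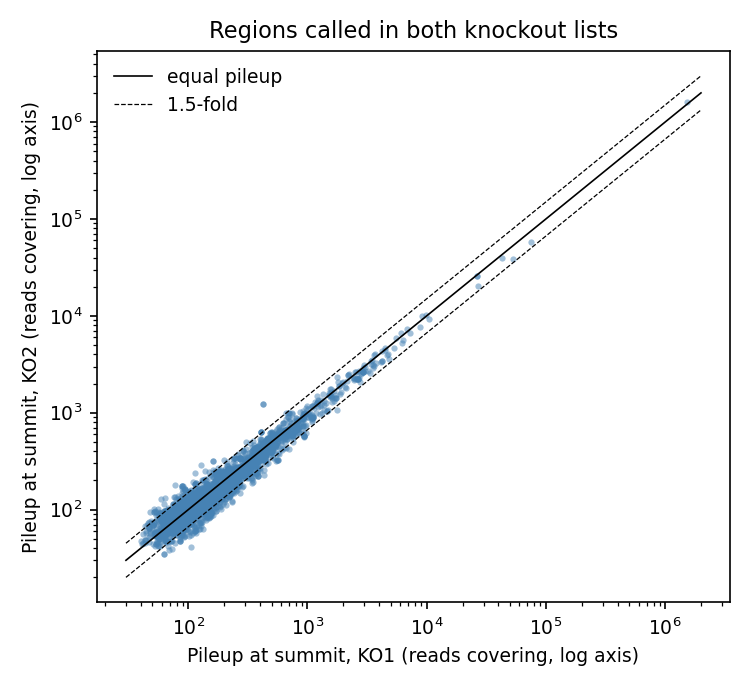
Pileup at the summit in KO1 (horizontal) and KO2 (vertical), read coverage on log axes, 1 point per region in both lists. The solid line marks equal pileup and the dashed lines 1.5-fold, between which 90.1% of the 2356 regions lie.

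The 4 genes with the largest pileup differences were named by the size of that difference, which is a description. HNRNPAB (NM_031266), an RNA-binding hnRNP protein, had a pileup of 427 in KO1 and 1241 in KO2, the highest log2 ratio at 1.54, but at summits 164 nt apart (nt 204 and nt 368). PCNX4 (NM_022495), a pecanex family protein, had 106 in KO1 and 41 in KO2, the lowest ratio at −1.37, at summits 109 nt apart (nt 344 and nt 235). Pileups were 127 and 291 for JAGN1 (NM_032492), an endoplasmic reticulum protein needed by neutrophils, at summits 13 nt apart. EEF2K (NM_013302), the kinase of elongation factor EEF2, had pileups of 78 in KO1 and 178 in KO2 and folds of 4.48 and 10.2, with summits 2 nt apart.

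Most summit pairs lay within 10 nt of each other. The rule requires the peaks of the 2 lists to overlap, which limits how far apart their summits can lie. The median distance between the KO1 and KO2 summits was 9 nt, with quartiles of 3 and 20 nt. The same nt was named in 191 regions (8.11%), 55.6% of pairs were within 10 nt, 81.6% within 25 nt and 94.3% within 50 nt. There was no net shift: the KO2 summit lay nearer the transcript start in 47.3% of regions and farther in 44.6%, with a median signed difference of 0 nt. Deeper peaks were placed more closely, with a median distance of 15 nt in the lowest quartile of mean pileup and 4 nt in the highest. Distances over 100 nt occurred in 42 regions (1.78%).

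**Figure D3:**
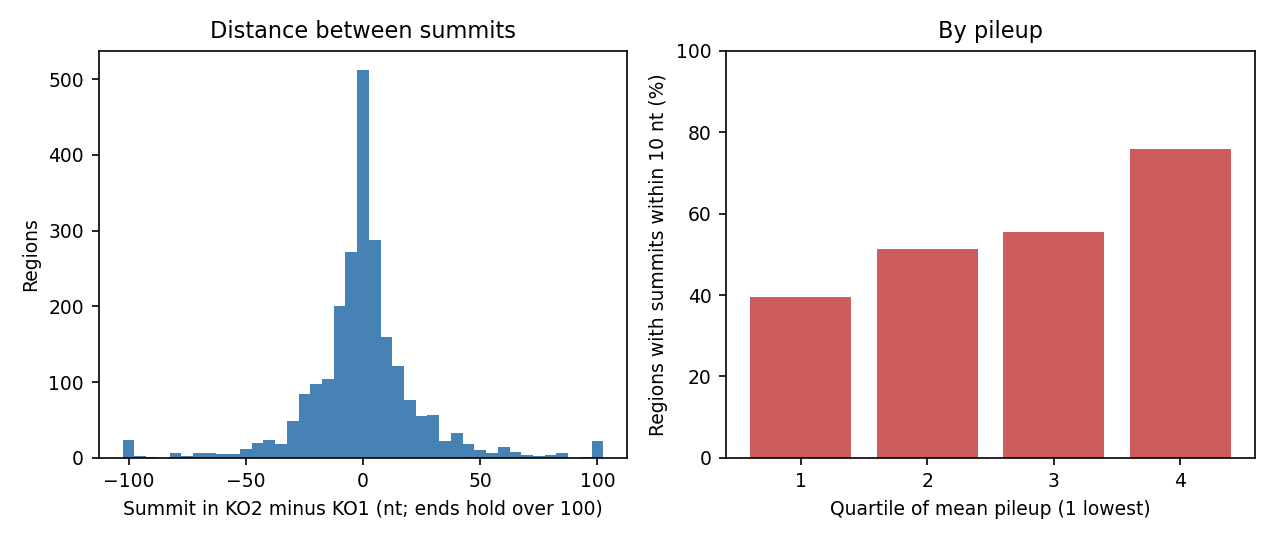
Left, number of regions by KO2 summit minus KO1 summit in nt, with both end bars holding distances over 100 nt; right, share of regions with summits within 10 nt by quartile of mean pileup. The share was 39.4% in the lowest quartile and 75.9% in the highest.

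The largest distances included regions in which the lists put their highest point at opposite ends. SOX12 (NM_006943) had its summit at nt 421 in KO1 and nt 98 in KO2, 323 nt apart, with nearly equal pileups of 141 and 135. On ZYX (NM_003461), the focal adhesion protein zyxin, the summits were at nt 139 and nt 420 and the folds 4.65 and 1.67. RAB2A (NM_002865), a GTPase of early secretory traffic, and HNRNPAB (NM_004499) followed, with distances of 165 and 164 nt.

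The authors' windowed IP coverage comes from the same IP libraries as the peaks, so it is no independent check of the summits. Its windows are 10 nt wide, every 5 nt, and scaled so that each region sums to about 200. Windows in both files covered 2090 of 2356 regions (88.7%). The 266 others were weaker, with a median lower fold of 2.13 against 3.78 in those covered. The window of highest IP coverage lay a median of 8 nt apart in the 2 files, and 59.5% of pairs were within 10 nt. At 28711 windows with the same position, Pearson's r of scaled IP coverage was 0.931; neighbouring windows overlap, and the scaling gives both files the same total. Mean IP coverage was 8.70 in KO1 and 8.68 in KO2 at the summit. It was 5.29 and 5.25 at 50 nt to the 5′ side of the summit and 5.54 and 5.67 at 50 nt to its 3′ side. These means rest on 2084 and 2087 regions at the summit, 2028 and 2030 on the 5′ side and 1746 and 1728 on the 3′ side. A median of 77.4% of a region's IP coverage in KO1 and 78.2% in KO2 lay within 50 nt of the summit (SD over regions 14.1 and 14.6). Demethylase-treated IP coverage, scaled in the same way, had 78.3% in KO1 and 78.5% in KO2 there. Because each region is scaled to a fixed sum, these values cannot show whether the treatment lowered the signal. The shares within 50 nt also depend on the width of the region, since only windows overlapping it were counted.

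**Figure D4:**
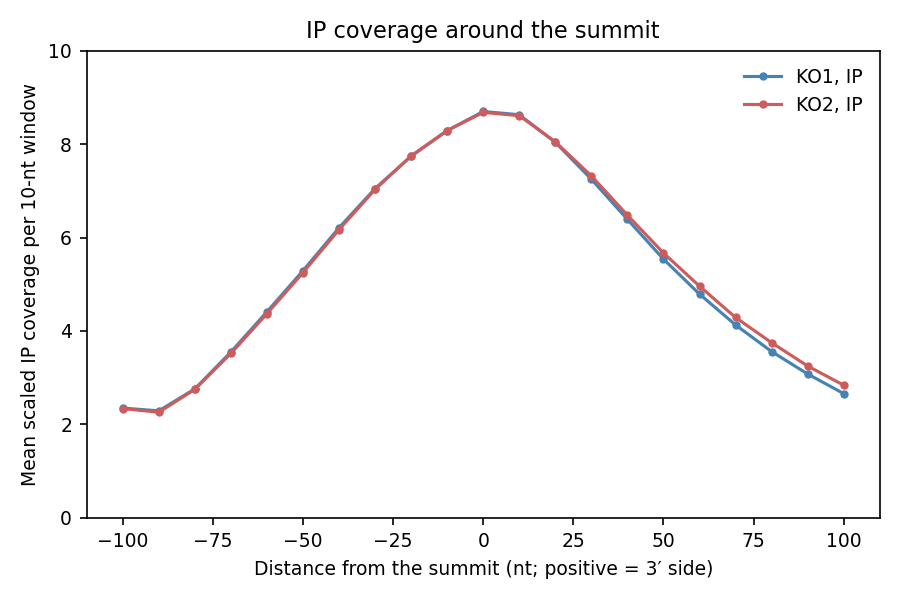
Mean scaled IP coverage per 10-nt window (vertical axis) against distance from the summit (horizontal axis, nt, positive to the 3′ side) in KO1 and KO2. Both curves peak at the summit, at 8.70 and 8.68, and lie at 2.35 and 2.34 at 100 nt to the 5′ side. The means rest on 2084 and 2087 regions at the summit and on 365 and 367 at 100 nt to the 5′ side. Only regions that reach a distance are counted there, so the fall mixes different sets of regions. The summits were called from the same libraries, so a maximum there is given by the design.

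By fold, most repeated regions were moderate. The lower fold of the 2 lists had a median of 3.64 over 1429 genes, was 4 or more in 40.0% of them, 10 or more in 34 genes (2.38%) and 20 or more in 3 genes. Among transcripts with a symbol, MYH9, the heavy chain of nonmuscle myosin IIA, came first: on NM_002473, nt 32 to 303, its pileups were 838 and 681 and its folds 46.6 in KO1 and 32.6 in KO2, with summits at nt 151 and nt 159. SRSF6, a serine/arginine-rich splicing factor, had pileups of 2434 and 2154 and folds of 27.5 and 25.4 on NR_034009, and its coding transcript NM_006275 had 27.3 and 25.0. LUC7L (NM_018032), a factor of the U1 small nuclear ribonucleoprotein, had pileups of 475 and 508 and folds of 22.0 and 24.3.

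Next among summits within 300 nt came TMEM70, an assembly factor of mitochondrial ATP synthase, with folds of 20.6 and 19.1. NDUFB6, a subunit of respiratory complex I, had 19.0 and 21.9. INTS11, the endonuclease of the Integrator complex, had 24.1 and 18.9, with summits 1 nt apart.

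Beyond nt 300, among transcripts with a symbol, the 6 highest lower folds lay between 10.3 and 18.5. KHDRBS3, a STAR family RNA-binding protein, had its summit at nt 384 in KO1 and nt 383 in KO2, with pileups of 354 and 324 and folds of 20.1 and 18.5. USP42 (NM_032172), a deubiquitinase, had the most distant summit of the top 6, at nt 2424 in both lists, with pileups of 226 and 194 and folds of 12.9 and 11.1. METTL17, a mitochondrial ribosome assembly factor, had its summit at nt 750 and folds of 11.5 and 11.2. The lower folds of S100A10 (an annexin A2 partner), GNG5 (a G protein gamma subunit) and ACOT7 (an acyl-CoA thioesterase) lay between 10.3 and 11.1. Summit distance was 3 nt or less in all 6 of these genes.

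On transcripts with NR accessions the top genes were SRSF6, TMEM70, LDHA (lactate dehydrogenase A, folds 15.3 and 12.7) and FKBP1A-SDCBP2. The first 3 are coding genes, whose NR transcript shares exons with their mRNA. FKBP1A-SDCBP2 is a readthrough transcript with folds of 10.6 and 11.7, and FKBP1A itself had a region with folds of 6.08 and 6.62. PCNA-AS1, an antisense transcript of PCNA, had pileups of 452 and 296 beside 511 and 338 for PCNA. Use of strand in the alignment is not stated in the labels, so reads of PCNA-AS1 and PCNA cannot be told apart.

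Ribosomal RNA gave the deepest signal. On 28S rRNA (NR_003287.2), nt 666 to 1649, the summit was at nt 1376 in both lists, with pileups of 1532544 and 1622947 and folds of 85.3 and 90.9. A second 28S region at nt 2262 to 2373, with its summit at nt 2307 in both lists, had a lower fold of 2.61. The miRNA hairpins hsa-mir-3648-1 and hsa-mir-3648-2, copies with identical values whose reads cannot be assigned to one of them, both had a region at nt 48 to 159, with pileups of 1822 and 1889 and folds of 7.94 and 5.06. Its summits were at nt 105 in KO1 and nt 90 in KO2. The RefSeq entry of the copy MIR3648-1 (NR_037421) had pileups of 1990 and 2055 and folds of 7.66 and 6.93. The mature sequence is shown because these 3 entries are the miRNA regions among the members, with its seed (bases 2 to 8) in capitals. It is that of the copy MIR3648-2, from RefSeq on GRCh38.p14, and its place in the called region was not determined.
hsa-miR-3648, chr21:8987026-8987046, plus strand: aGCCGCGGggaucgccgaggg
All libraries were made from polyadenylated RNA, per the labels, and the part of carried-over RNA in the 28S and hairpin signal was not tested.

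Gene functions were read from 18 gene lists, of which 229 genes had a region in both lists. Lists of ZNF genes and solute carriers were added after the values were seen, and with them 258 of 1909 list genes had such a region. The share is given of the genes of a list that have a peak in any list of the series, beside 15.3% for all genes, and no test was made. Transcript abundance, which bears on whether a peak is called, is not in these files, and its part in the shares was not tested. Splicing factors and hnRNP proteins had 29 of 71 genes (40.8%, 30.2 to 52.5), respiratory chain complexes 24 of 66 (36.4%, 25.8 to 48.4), translation factors 17 of 50 (34.0%, 22.4 to 47.8) and autophagy and lysosome genes 15 of 45 (33.3%, 21.4 to 47.9). Replacement and linker histones had 7 of 9. At the other end stood RNA helicases with 3 of 38 (7.89%, an interval of 2.72 to 20.8 that includes 15.3%), and zinc finger genes with ZNF symbols with 10 of 180 (5.56%, 3.05 to 9.92). Counting every gene with a peak in KO2, repeated or not, gave 7 helicases, and in KO1 6. Set against genes with a peak in KO1 or KO2, where 53.4% of all genes have a repeated region, splicing factors had 72.5% (57.2 to 83.9). The intervals of the respiratory chain (64.9%, 48.8 to 78.2), translation factors (68.0%, 48.4 to 82.8) and RNA helicases (30.0%, 10.8 to 60.3) include that share. Mitochondrial ribosomal proteins (42.4%), the RAB family (42.9%), chaperones (50.0%), sterol synthesis (50.0%) and the proteasome (52.4%) were above the share of all genes on the first denominator and below it on this one. With the first denominator, the intervals of mitochondrial ribosomal, RAB, chaperone, sterol synthesis, chromatin, antioxidant and tubulin genes also include 15.3%. Those of RNA methylation genes and solute carriers include it too, and the proteasome interval starts at it.

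**Figure D5:**
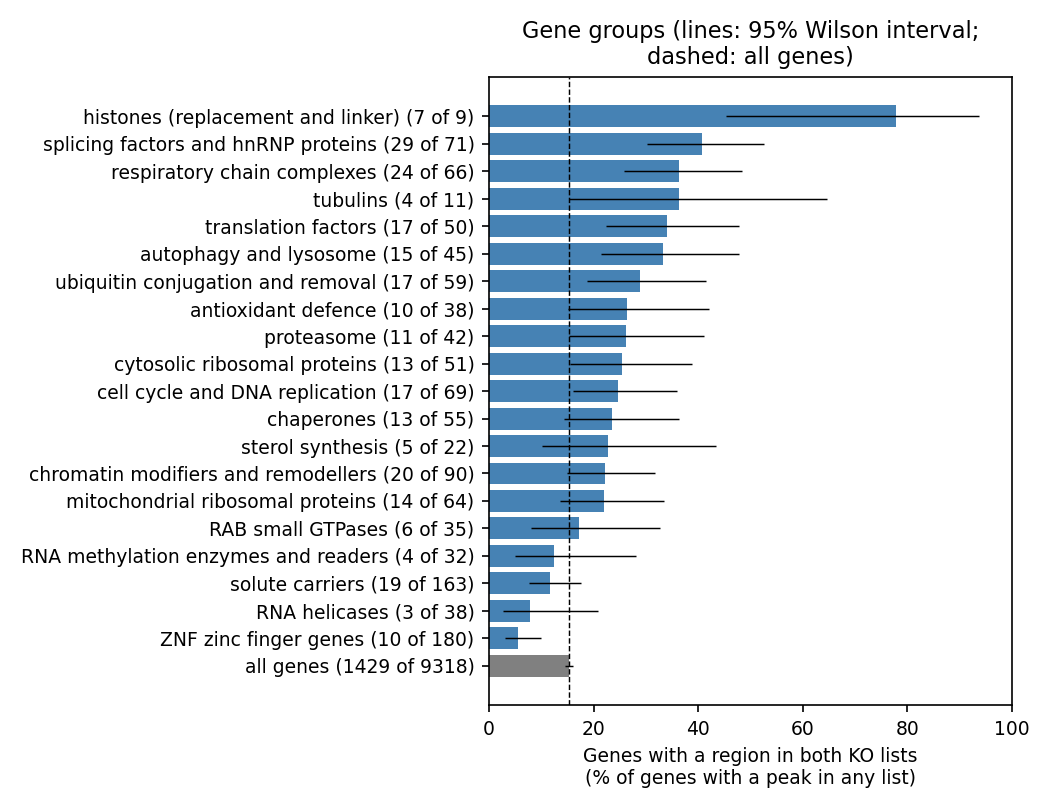
Genes with a region in both lists as a share of genes with a peak in any list of the series (horizontal axis, %), by gene group, with 95% Wilson intervals and the counts in the labels. The dashed line is the 15.3% of all genes; the splicing group is at 40.8% and RNA helicases at 7.89%.

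Among splicing genes, the serine/arginine-rich proteins, which bind exonic enhancers, were represented by SRSF1, SRSF2, SRSF3, SRSF6, SRSF7 and SRSF9. SRSF1 had pileups of 914 and 892 and folds of 9.43 and 11.6. TRA2B, a related splicing activator, had its summit at nt 221 in both lists with folds of 8.18 and 8.97. PRPF8, the core protein of the spliceosome's catalytic centre, had folds of 9.11 and 7.69. The group spread widely in fold, from 1.55 and 1.33 for HNRNPD to 27.5 and 25.4 for SRSF6, with a median lower fold of 4.14. In 24 of the 29 the summit lay within 300 nt.

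The 24 respiratory chain genes came from every complex of the chain. For complex I, NDUFB10 had pileups of 2487 and 2623 and folds of 12.8 and 13.4, with summits 1 nt apart. SDHA, the flavoprotein of complex II, had 5.56 and 5.64. UQCRQ of complex III had 6.80 and 7.17, and COX5A of complex IV 6.42 and 4.99. The ATP synthase subunit ATP5F1D had pileups of 4657 and 3966 and its summit at nt 136 in both lists. All these genes are nuclear. The group's median lower fold was 5.07, beside 3.64 over all genes, each fold being relative to its own transcript's background.

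Mitochondrial ribosomal proteins had a region in 14 of 64 genes (21.9%, 13.5 to 33.4). Repeated or not, 23 genes had a peak in KO2 and 24 in KO1. MRPL2, of the large subunit, stood above the rest with pileups of 1943 and 2046 and folds of 17.2 and 16.6. MRPL10 differed between replicates, with folds of 5.23 in KO1 and 12.1 in KO2. Cytosolic ribosomal proteins had 13 of 51 (25.5%, 15.5 to 38.9), with deep pileups and modest folds. Their median pileups were 2697 and 2723 and their median lower fold 2.77. RPS20 was highest, with folds of 7.68 and 7.93, while RPL13 had pileups of 3426 and 3450 at folds of 1.20 and 1.38. Such a fold means that the local background of RPL13 was nearly as high as its summit.

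Of the 17 translation factors, 12 had the summit within 300 nt, and their median lower fold was 4.07. EIF5, which triggers GTP hydrolysis on the scanning ribosome, had pileups of 1037 and 981 and folds of 13.2 and 9.47. EIF1, which guards start codon choice, had pileups of 6380 and 5612, and EIF1AX, its partner in scanning, had folds of 7.21 and 6.99. EEF1A2, an elongation factor, had its stronger region at nt 1812 in KO1 and nt 1811 in KO2, with folds of 6.97 and 6.94.

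In autophagy and the lysosome, CTSD (the protease cathepsin D) had pileups of 890 and 818 and folds of 11.5 and 10.9. MAP1LC3B, which is lipidated onto autophagosomes, had its summit at nt 230 in both lists, with folds of 8.17 and 7.88. ATP6V0C, a proton-pump subunit, had pileups of 5323 and 4705. The small GTPase genes of the RAB family had a region in 6 of 35 genes (17.1%, 8.10 to 32.7), and 11 had a peak in KO2, repeated or not. RAB5C, of early endosomes, led them with folds of 14.7 and 12.5 and its summit at nt 154 in both lists, and RAB7A, of late endosomes, had 4.79 and 4.85.

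Protein quality control gave shares above the 15.3% of all genes. Ubiquitin genes had 17 of 59 (28.8%, 18.8 to 41.4) and proteasome genes 11 of 42 (26.2%, 15.3 to 41.1). Chaperone genes had 13 of 55 (23.6%, 14.4 to 36.3), an interval that includes 15.3%. Of genes with a peak in KO1 or KO2, 70.8% (50.8 to 85.1), 52.4% and 50.0% had a repeated region, in that order, beside 53.4% of all genes. Repeated or not, 20 chaperones had a peak in KO1. UBE2C, the E2 enzyme of the anaphase-promoting complex, had folds of 8.45 and 6.45. PSMD12, of the proteasome lid, had 8.17 and 7.50. TCP1, of the cytosolic chaperonin, had 6.99 and 8.77. HSPA1B had its summit at nt 115 in both lists but pileups of 546 in KO1 and 320 in KO2, and its near-identical copy HSPA1A makes that assignment uncertain.

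Chromatin genes had a region in 20 of 90 genes (22.2%, 14.9 to 31.8). DNMT1, the maintenance DNA methyltransferase, had pileups of 261 and 267 and folds of 8.19 and 9.12, and KAT8, a histone H4 acetyltransferase, had 8.0 and 8.53. H2AZ2, a histone variant, had the highest folds of its list at 8.73 and 6.61. H3-3A and H3-3B, which encode the same replacement histone, both had regions, with folds of 5.62 and 4.72 and of 5.89 and 6.0. Cell cycle and replication genes had 17 of 69 (24.6%, 16.0 to 36.0), and 26 had a peak in KO2, repeated or not. PCNA, the sliding clamp, had folds of 9.72 and 7.04, and TFDP1, the partner of E2F factors, had its summit at nt 102 in both lists with folds of 8.35 and 6.51.

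Antioxidant genes had a region in 10 of 38 genes (26.3%, 15.0 to 42.0), with GLRX3, an iron-sulfur glutaredoxin, at folds of 9.41 and 6.48 and PRDX2, a peroxiredoxin, at 5.94 and 6.66. Sterol synthesis had 5 of 22 (22.7%, 10.1 to 43.4), and 9 had a peak in KO2, repeated or not. FDFT1 (squalene synthase) had folds of 6.23 and 5.87 and its summit at nt 236 in both lists. Tubulins had 4 of 11, led by TUBB4A at 10.9 and 10.0, and reads of TUBB2A and TUBB2B may be shared between these close copies. Solute carriers had 19 of 163 (11.7%, 7.59 to 17.5), and SLC35B1, a nucleotide carrier, had folds of 9.86 and 6.64. Among helicases, DDX5 had folds of 4.69 and 4.80.

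Genes of RNA methylation stood near the background. Of 32 enzymes and readers with a peak in any list, 4 had a repeated region (12.5%, 4.97 to 28.1), beside the 15.3% of all genes, and these were 57.1% (25.0 to 84.2) of those with a peak in KO1 or KO2, beside 53.4%. WTAP, a subunit of the m6A writer complex, had folds of 5.16 and 6.10 with summits at nt 149 and nt 154. The other 3 had summits beyond 300 nt and low folds: RBM15B, another writer subunit, had 3.25 and 2.30, TRMT112, a methyltransferase cofactor, had 1.96 and 2.72, and YTHDF2, an m6A reader, had 2.98 and 1.86.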

How the data were processed

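Peaks of 10 immunoprecipitation libraries were called by the authors with MACS2, per the file headers and peak names. The submitters' processing notes also name Trim Galore, HISAT and hg19, without versions. The input behind each list and the library totals are not given in the sources used here, so depth is unknown. Pileup, as deposited, is the coverage signal (read depth) at a summit, without visible normalization. The deposited fold enrichment is a ratio over local background, by the authors. The deposited −log10 p-values and −log10 q-values are the peak caller's; only q-values were used. The deposited windowed files hold scaled coverage signal.

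Peaks were merged at an overlap of 1 nt or more on a transcript (Python 3.11.15, pandas 2.3.3). The highest peak of each list stands for that list, and the higher pileup gives the region's summit. With 1 pair of lists no test was made. Symbols came from RefSeq genes of GRCh38.p14 (names only; 98.7% of knockout transcripts matched). Merging was tested on simulated data. The counting error of a pileup ratio assumed Poisson counts.

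Named genes, 1 region each, were the top 6 by lower fold per position class, the top 4 on noncoding transcripts, up to 4 per list, and the 4 largest pileup and summit differences; the class of nt 1 to 60 was empty. Members and lists were chosen with earlier results of these data known. Finer position classes, ZNF and solute carrier lists, and genes named beyond this rule were chosen after seeing the values. Some items that these rules name are not reported here.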

Additional observations from a re-analysis of the deposited data

How the results depend on the processing

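No paired analysis was possible because no result comes from a test. In place of 2356 repeated regions, 932 were found with peaks of 4-fold enrichment or more, and 1429 with 1 transcript per gene; other settings gave 2223 to 2353. At 4-fold or more, 66.7% of summits were within 10 nt (55.6% over all regions), 86.4% of summits were within 300 nt (76.0% over all regions), and 105 genes of the lists, in place of 229, had a repeated region. Taking the start of the region in place of the summit put 83.1% within 300 nt. Leaving out 1 replicate list gave 71.6% to 72.7% within 300 nt, and 301 genes of the lists in either case. The median log2 pileup ratio lay between −0.13 and 0.02, its sign turning when each list was divided by its own median. Of 72 counts by single list under another setting, 46 stayed within 1.5 times and 26 moved, 8 upward. Sequence composition for summits within 60 nt gave no value, since no region qualified. Settings on transcripts without a symbol and on far positions were chosen after seeing the data. A weak peak missing from a list means that it was not called, not that m1A is absent; isoform counts repeat reads; fold cannot be compared across transcripts of different background.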

Other observations

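Some transcripts carried 2 repeated regions, 1 near the start and 1 farther in. There were 47 transcripts with 2 or more, among them those of RABL2B, HLA-DQB1 and TTTY4C, whose far positions are unclear. OAZ1 (NM_004152), ornithine decarboxylase antizyme, had a region with pileups of 694 and 821 at summits of nt 103 and nt 110, and another with pileups of 1309 and 1194 at nt 847 and nt 840. RHOB (NM_004040), a small GTPase of the endosome, had its first summit at nt 112 and nt 109 (folds 4.26 and 4.94) and its second at nt 1000 and nt 972 (folds 3.14 and 4.71). In ATP5PF (NM_001003703), an ATP synthase subunit, the farther region was the stronger, with folds of 7.08 and 6.43 against 4.03 and 3.25. RER1 (NM_007033), a Golgi retrieval receptor, showed the opposite order, with folds of 8.90 and 6.59 at the start and 3.97 and 4.22 beyond nt 2132. These genes were chosen after their values were seen.

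For unnamed transcripts, the lower folds of NM_001190470, NM_001190706, NM_001190476 and NM_001190702 were 82.0, 38.1, 33.3 and 31.1. In that order, their pileups in KO1 and KO2 were 74924 and 57185, 27020 and 20469, 786 and 583, and 52995 and 38521. Whether these reads came from other RNAs of similar sequence was not tested. On 3 transcripts, of RABL2B, HLA-DQB1 and HLA-DRB4, 10 repeated regions lay beyond nt 110000. RABL2B, a GTPase of cilia, had pileups of 556 and 326 at nt 279585 in both lists and of 556 and 328 at nt 1014332. Nearly the same pileups, 563 and 329, stood at nt 703791 of HLA-DQB1 and at nt 725175 of HLA-DRB4. Whether the same reads were counted at all these positions was not tested, so they cannot be taken as separate signals of these genes.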
